A study of Rattus norvegicus with 18 samples.

Results

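The VEGF and angiopoietin system was followed in perinatal rat lung through 7 genes: the ligands Vegfa, Angpt1 and Angpt2 and the receptors Kdr, Flt1, Tek and Tie1. All probe sets annotated to one of these genes alone were taken. This gave 11 of the 31042 probe sets of the Affymetrix Rat Genome 230 2.0 array that are not array controls, and 7 of 14217 annotated genes. The lungs came from Wistar rats at fetal day 19 (FD19), at fetal day 22 (FD22) and at P1, which here means newborns 5 h after birth. Fetuses were delivered by Cesarean section and newborns vaginally, and the labels name no agent or genetic change. At each stage 3 litters gave 3 lysates of whole lung. Each of the 9 lysates gave a polysomal sample, from mRNA carrying more than 7 ribosomes, and a total RNA sample, so that 18 arrays fell into 6 groups of 3. The design allows each stage to be compared with the earlier ones in either fraction, and polysomal with total RNA at each stage.

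Vegfa encodes the main secreted growth factor of blood vessel endothelium, and in the lung much of it is made by the epithelium. Its receptor Kdr (VEGF receptor 2) carries most of its signal for endothelial growth and survival. Flt1 (VEGF receptor 1) binds the ligand tightly, signals weakly and is also made as a secreted form that holds the ligand back. Angpt1, from cells around the vessel, activates the receptor kinase Tek (also called Tie2) and steadies the vessel wall. Angpt2, stored and released by endothelium, can oppose it, and Tie1 is a related receptor that modifies signalling by Tek. Around birth the lung capillary bed grows along the thinning air spaces, a growth in which both pathways are known to take part.

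Signals are given on the linear scale of the deposited table. The arrays had been scaled to 1 trimmed mean (150.03 to 150.04), and their medians lay between 51.6 and 73.5. Since this scaling was applied to both fractions, a polysomal value set against a total RNA value says how an mRNA stood among the other mRNAs of each array. Log2 changes and their standard errors (SE) come from limma on log2(signal + 5.5). They were adjusted by the Benjamini-Hochberg method over 21675 probe sets whose signal was above 40.8 in at least 3 of 18 arrays, and a gene was called at an adjusted p under 0.05. Fold values are on the same scale and understate the change of dim probe sets. Of the 11 probe sets 10 passed this filter, for 6 of the 7 genes, and the 1 of Angpt1 did not. A gene is represented by its brightest probe set unless another is named. The array numbered 1 had the lowest median in 6 of 6 groups. On the third principal component (10.2% of the variance) the 6 arrays numbered 1 lay at 14.4 to 37.5 and the other 12 at -37.9 to 1.09, so counts are also given without them.

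RefSeq promoter windows (build GRCr8, 250 bases before to 50 after a transcript start) were held for Vegfa, Kdr, Tie1 and Flt1. Of the 2 windows held for Vegfa the upstream one is printed. The windows are shown because Vegfa, Kdr and Tie1 were called higher together in total RNA at FD22 against FD19, while Flt1 was not called there. The Flt1 probe sets differed in that comparison, with 1369087_at at 0.44 (adjusted p = 0.0931, limma) and the brightest, 1377113_at, at -0.29 (adjusted p = 0.428). Tek was called higher there too, but no window was held for it. Vegfa is at chr9:22452604-22452903 and Kdr at chr14:32571813-32572112, both on the plus strand. Tie1 is at chr5:137304932-137305231 on the minus strand and Flt1 at chr12:12333180-12333479 on the plus strand. Each is written in the direction of its gene. Capitals mark a GC box (GGGCGG or its reverse complement CCGCCC) and the core of a hypoxia element (ACGTG or GCGTG, either strand).
Vegfa: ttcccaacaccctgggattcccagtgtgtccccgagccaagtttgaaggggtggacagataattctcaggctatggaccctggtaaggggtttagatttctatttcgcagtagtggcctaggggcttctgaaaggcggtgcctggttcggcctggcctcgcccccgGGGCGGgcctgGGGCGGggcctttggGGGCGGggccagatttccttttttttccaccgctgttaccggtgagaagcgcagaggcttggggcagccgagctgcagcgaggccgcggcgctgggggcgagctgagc
Kdr: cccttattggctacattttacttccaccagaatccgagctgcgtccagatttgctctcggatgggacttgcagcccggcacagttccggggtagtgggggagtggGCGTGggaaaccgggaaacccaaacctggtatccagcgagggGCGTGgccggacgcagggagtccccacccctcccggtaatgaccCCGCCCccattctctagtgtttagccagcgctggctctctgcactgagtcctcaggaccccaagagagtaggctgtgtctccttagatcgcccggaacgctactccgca
Tie1: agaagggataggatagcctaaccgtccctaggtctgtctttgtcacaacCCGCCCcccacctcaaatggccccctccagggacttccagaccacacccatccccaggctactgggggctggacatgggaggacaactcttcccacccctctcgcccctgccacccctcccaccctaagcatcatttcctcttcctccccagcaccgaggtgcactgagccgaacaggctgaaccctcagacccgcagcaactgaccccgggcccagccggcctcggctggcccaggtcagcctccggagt
Flt1: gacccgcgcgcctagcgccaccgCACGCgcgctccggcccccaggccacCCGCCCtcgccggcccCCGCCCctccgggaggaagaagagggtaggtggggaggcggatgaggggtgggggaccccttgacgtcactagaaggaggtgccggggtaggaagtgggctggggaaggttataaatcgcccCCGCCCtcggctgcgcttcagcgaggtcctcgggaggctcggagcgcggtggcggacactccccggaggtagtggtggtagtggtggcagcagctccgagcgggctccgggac
The GC box occurred 3 times in the printed windows of Vegfa and Flt1 and 1 time in those of Kdr and Tie1, and it is found in 33.1% of 33469 promoter windows of the same length. The hypoxia core occurred 2 times in Kdr, 1 time in Flt1 and 0 times in Vegfa and Tie1, against a share of 41.6% of all windows. The other Vegfa window (chr9:22460028-22460327) held 0 GC boxes and 0 hypoxia cores. No base was shared between matches of the 2 motifs. A match is a description of letters, and a window without one says nothing about a factor.

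At FD22 against FD19, the VEGF receptor Kdr, the angiopoietin receptor Tek and the ligand Vegfa were called higher in both fractions. Tie1 was called in total RNA only, but its polysomal change (0.57, adjusted p = 0.0551, limma) was close to that of Vegfa (0.58, adjusted p = 0.0312). Both Vegfa calls ended in 9 of 19 alternatives (other settings or arrays left out). The second Vegfa probe set, 1370081_a_at, stood at 0.22 in polysomal RNA (adjusted p = 0.584). In polysomal RNA 3 of the 6 tested members were called higher and 0 lower, where 15.9% of all probe sets were called (8.22% higher and 7.7% lower). In total RNA 4 were higher and 0 lower, where 16.2% were called (8.42% higher and 7.82% lower). The members' median log2 change was 0.50 in polysomal and 0.56 in total RNA, against -0.02 and 0.01 for all probe sets. The members parted at P1 against FD22. In polysomal RNA Tek was called higher and Kdr lower, where 8.34% of probe sets were called (3.79% higher and 4.55% lower). The calls of Tek and Kdr each ended in 11 of 19 alternatives, among them without any one P1 litter. In total RNA limma called 0 members, although 4 had an unadjusted p under 0.05, and 3.97% of probe sets were called (2.21% higher and 1.76% lower). The members' median was -0.36 in polysomal and -0.27 in total RNA, against -0.03 and -0.05 for all probe sets.

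For P1 against FD19, 3 members were called higher and 0 lower in polysomal RNA, where 28.9% of probe sets were called (13.1% higher and 15.8% lower). In total RNA 2 were higher and 0 lower, where 26.2% were called (12.4% higher and 13.7% lower). Without the arrays numbered 1, the counts of member genes called were 2 in polysomal and 3 in total RNA for FD22 against FD19, 0 and 0 for P1 against FD22, and 1 and 1 for P1 against FD19. In whole lung, more cells of a type and more RNA per cell cannot be told apart.

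**Figure D1:**
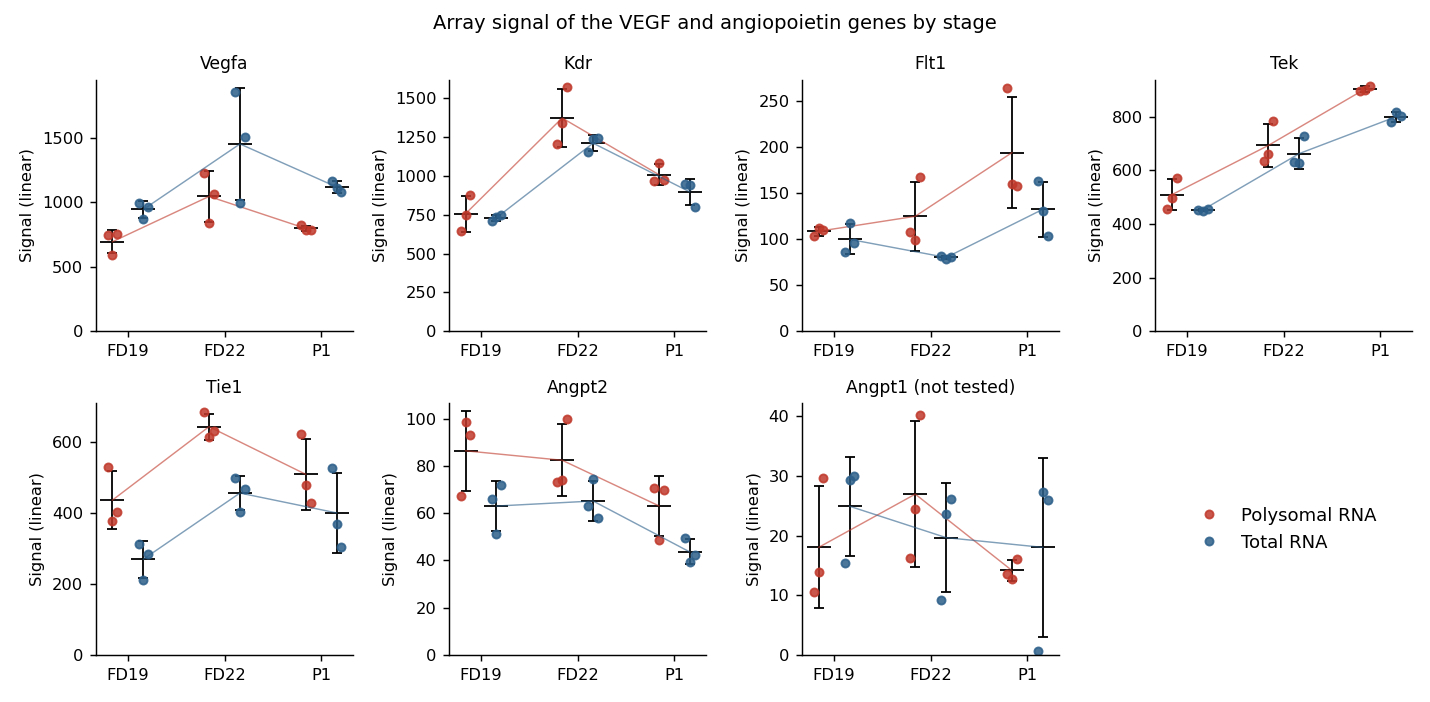
Linear signal of the brightest probe set of each member gene at FD19, FD22 and P1, with polysomal RNA in red on the left and total RNA in blue on the right; points are arrays, and black bars are mean ± SD of 3 arrays. Kdr and Vegfa have their highest mean at FD22 in both fractions, Tek has its highest at P1, and Angpt1 is at or below 40.2 on all arrays.

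The ligand Vegfa (probe set 1373807_at) was highest on average at FD22 in both fractions. Its polysomal signal was 743.0, 590.2 and 750.8 in the 3 litters at FD19, 1231.1, 841.7 and 1066.1 at FD22, and 821.0, 783.7 and 788.8 at P1. In total RNA it was 997.7, 871.1 and 966.7 at FD19, 1859.2, 996.6 and 1504.9 at FD22, and 1167.9, 1112.4 and 1078.7 at P1. Polysomal values at FD22 were all above those at FD19, whereas in total RNA litter 2 of FD22 lay within the FD19 range. Vegfa rose at FD22 against FD19 by a log2 change of 0.58 ± 0.18 (SE) in polysomal RNA (adjusted p = 0.0312, limma) and of 0.57 ± 0.18 in total RNA (adjusted p = 0.0318). Both calls ended in 9 of 19 alternatives. They ended after median centring, with no variance trend and with only the groups compared (adjusted p 0.0557 to 0.0577 in polysomal and 0.0577 to 0.0892 in total RNA). They also ended without any one FD19 litter and without litter 1 or 3 of FD22. The adjusted p was then 0.0552 to 0.171 in polysomal and 0.0662 to 0.138 in total RNA, and without litter 1 of FD22 the change in total RNA was 0.37. Without the arrays numbered 1 the changes were 0.51 (adjusted p = 0.119) and 0.41 (adjusted p = 0.19).

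From FD22 on, Vegfa stood at -0.37 in polysomal RNA at P1 (95% interval -0.74 to -0.0016, adjusted p = 0.227) and at -0.33 in total RNA (-0.70 to 0.04, adjusted p = 0.367), and neither was called. Without litter 2 of FD22 both passed, at -0.52 (adjusted p = 0.0405) and -0.58 (adjusted p = 0.0381). A second Vegfa probe set, 1370081_a_at, had signals of 176.8 to 323.1 in polysomal and 181.1 to 482.5 in total RNA. It was also called higher in total RNA at FD22 against FD19 (0.69 ± 0.22, adjusted p = 0.0395), a call that ended in 9 of 19 alternatives, among them without FD19 litter 1 or 2 or FD22 litter 1 or 2 (0.49 to 0.71, adjusted p 0.0814 to 0.184). In polysomal RNA it stood at 0.22 (95% interval -0.25 to 0.69, adjusted p = 0.584). The suffix _a_at marks a probe set that matches more than 1 transcript form of its gene.

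Kdr (1367948_a_at), the main signalling receptor for VEGF, was highest at FD22 in both fractions. Its polysomal signal was 646.1, 747.0 and 874.6 at FD19, 1207.6, 1336.9 and 1571.8 at FD22, and 964.6, 1082.8 and 975.9 at P1. In total RNA it was 708.1, 736.4 and 746.2 at FD19, 1151.1, 1238.6 and 1240.7 at FD22, and 949.9, 939.6 and 800.9 at P1. The 3 stages did not overlap in either fraction, with FD22 highest, P1 between and FD19 lowest. Kdr rose at FD22 against FD19 by 0.86 ± 0.13 on the log2 scale in polysomal RNA (1.81-fold, adjusted p = 0.000121) and by 0.72 ± 0.13 in total RNA (1.65-fold, adjusted p = 0.000496). These 2 calls held under each of 19 alternatives, with an adjusted p of at most 0.00891 and 0.00542.

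After birth the Kdr signals were below those at FD22 in both fractions, and only the polysomal change was called. Kdr fell by 0.44 on the log2 scale in polysomal RNA at P1 against FD22 (0.74-fold, adjusted p = 0.0365), and it stood at -0.43 in total RNA (95% interval -0.70 to -0.17, adjusted p = 0.0605). The change of its polysomal over total ratio was -0.0032 (95% interval -0.37 to 0.37) and was not called, so no difference between the fractions was found. The polysomal call ended in 11 of 19 alternatives, among them leaving out any one P1 litter, FD22 litter 2 or 3 or FD19 litter 2 (-0.33 to -0.49, adjusted p 0.0562 to 0.135). The total RNA value passed under 3 of them (adjusted p 0.0307 to 0.0473). Set against FD19, Kdr at P1 was called higher in polysomal RNA (0.42 ± 0.13, adjusted p = 0.0157) and stood at 0.29 in total RNA (adjusted p = 0.0978). That polysomal call ended without FD19 litter 1 or 2 or P1 litter 2 (0.31 to 0.42, adjusted p 0.0572 to 0.106), without the arrays numbered 1 (adjusted p = 0.1) and under quantile normalization (adjusted p = 0.0642). The other Kdr probe set, 1397868_at, was above the filter on 6 of 18 arrays (5.1 to 62.9) and had an SE of 0.52 for each stage comparison, and none of its changes was called.

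**Figure D2:**
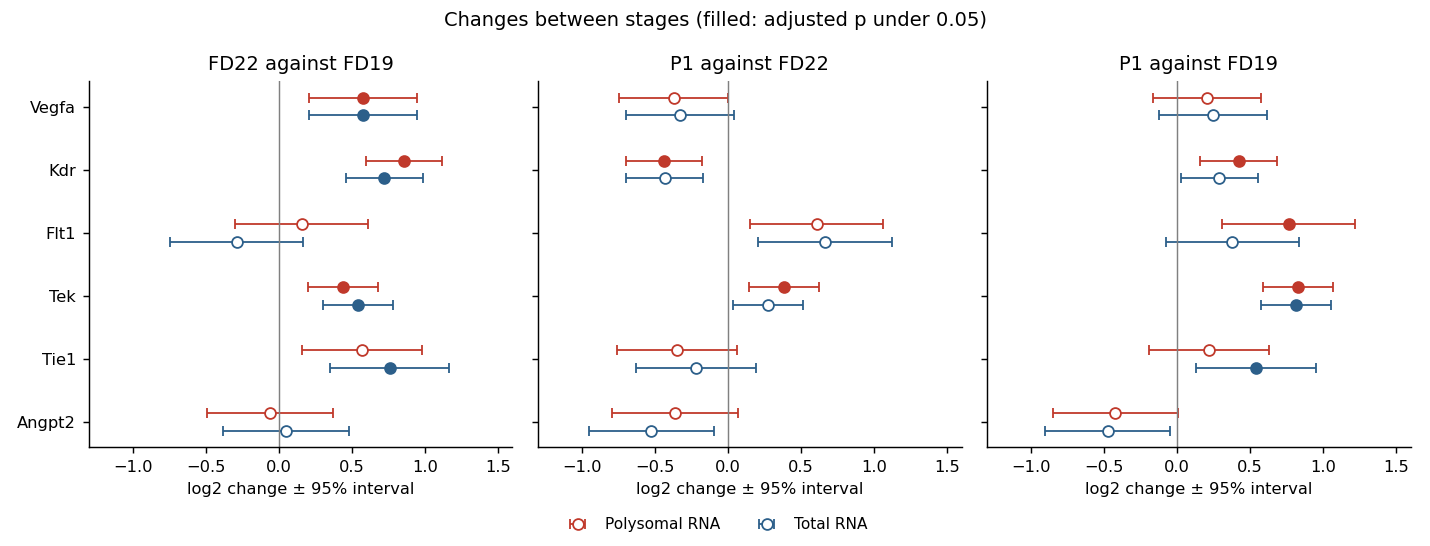
Log2 change between stages with its 95% interval for the 6 tested member genes, polysomal RNA in red above total RNA in blue; filled points passed an adjusted p under 0.05. Kdr lies right of 0 at FD22 against FD19 and left of 0 at P1 against FD22 in both fractions, and Tek lies right of 0 in all 3 panels.

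Flt1, the VEGF receptor with a secreted form, was read by 3 probe sets that did not behave alike. The brightest, 1377113_at, had polysomal signals of 103.5, 112.8 and 109.9 at FD19, 108.2, 98.8 and 168.1 at FD22, and 264.3, 160.1 and 158.3 at P1. Its total RNA signals were 85.9, 117.7 and 96.3 at FD19, 81.5, 78.4 and 80.8 at FD22, and 163.7, 130.4 and 103.7 at P1. All FD22 total RNA values lay below the FD19 and P1 values, and polysomal values at P1 lay above all others except litter 3 of FD22. This probe set rose at P1 against FD19 in polysomal RNA (0.77 ± 0.22, adjusted p = 0.0118). The call ended without P1 litter 1 (0.53, adjusted p = 0.0712) and without all arrays numbered 1 (0.50, adjusted p = 0.148). Its change at P1 against FD22 was 0.61 in polysomal (95% interval 0.15 to 1.07, adjusted p = 0.0929) and 0.67 in total RNA (0.21 to 1.12, adjusted p = 0.1), and neither passed. The polysomal change passed without FD22 litter 3 (0.83, adjusted p = 0.0282), and the total RNA change passed under quantile normalization (0.80, adjusted p = 0.0398).

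The Flt1 probe set 1369087_at had a higher mean at each later stage. Its polysomal signal was 60.4, 76.4 and 67.4 at FD19, 68.0, 103.8 and 100.5 at FD22, and 108.8, 112.8 and 142.0 at P1. Its total RNA signal was 89.0, 97.8 and 101.9 at FD19, 125.9, 130.4 and 140.4 at FD22, and 147.6, 143.1 and 182.9 at P1. In total RNA the 3 stages did not overlap. It rose at P1 against FD19 by 0.78 ± 0.17 in polysomal RNA (adjusted p = 0.00191) and by 0.68 ± 0.17 in total RNA (adjusted p = 0.00618), and both calls held under each of 19 alternatives. For FD22 against FD19 it stood at 0.44 ± 0.17 in total RNA (adjusted p = 0.0931), where 1377113_at stood at -0.29 ± 0.22 (adjusted p = 0.428). The dimmest Flt1 probe set, 1370492_a_at, was above the filter on 14 of 18 arrays, ranged from 30.8 to 72.3 and was called in no comparison of stages. In polysomal RNA at P1 against FD19 it stood at 0.53 (adjusted p = 0.0571). That change passed under 4 of 18 alternatives, namely quantile normalization, median centring, no variance trend and the replicate block (adjusted p 0.0219 to 0.0326). The files do not say which transcript form each probe set reads, and RNA of the secreted form could not be separated.

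Tek (1393067_at), the receptor for angiopoietins, was higher at each later stage. Polysomal signals were 456.9, 496.9 and 572.0 at FD19, 633.6, 660.7 and 783.3 at FD22, and 895.5, 898.5 and 914.0 at P1. Total RNA signals were 452.4, 448.9 and 454.8 at FD19, 631.4, 627.6 and 727.5 at FD22, and 780.0, 815.7 and 801.9 at P1. The stages did not overlap in either fraction. Tek rose at P1 against FD19 by 0.83 ± 0.11 in polysomal (1.77-fold, adjusted p = 2.45e-05) and by 0.81 ± 0.11 in total RNA (1.76-fold, adjusted p = 2.96e-05), and both calls held under each of 19 alternatives. By FD22 it had already risen against FD19, by 0.44 ± 0.11 in polysomal (adjusted p = 0.0122) and by 0.54 ± 0.11 in total RNA (adjusted p = 0.00274). The total RNA call held under each alternative, and the polysomal one ended without FD19 litter 1 or 2 or FD22 litter 3 (0.35 to 0.43, adjusted p 0.057 to 0.0785), without the arrays numbered 1 (adjusted p = 0.0731) and with only the groups compared (adjusted p = 0.0896).

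A further rise of Tek after birth was called in polysomal RNA at P1 against FD22 (0.39 ± 0.11, adjusted p = 0.0435), and total RNA stood at 0.27 (95% interval 0.03 to 0.51, adjusted p = 0.22). The change of its polysomal over total ratio was 0.11 (95% interval -0.23 to 0.45) and was not called, so no difference between the fractions was found. The polysomal call ended in 11 of 19 alternatives. Among them were leaving out FD19 litter 2 or 3, FD22 litter 1 or 2 or any P1 litter (0.33 to 0.39, adjusted p 0.0619 to 0.164).

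Tie1 (1389324_at), the partner receptor of Tek, had polysomal signals of 529.7, 377.7 and 402.9 at FD19, 685.9, 615.0 and 631.1 at FD22, and 622.0, 479.6 and 427.4 at P1. Its total RNA signals were 313.0, 212.1 and 285.3 at FD19, 499.3, 403.6 and 467.4 at FD22, and 526.6, 370.3 and 305.1 at P1. FD22 lay above FD19 without overlap in both fractions, while P1 overlapped with both other stages. In total RNA Tie1 rose at FD22 against FD19 by 0.76 ± 0.20 (1.69-fold, adjusted p = 0.0113), a call that ended without FD19 litter 2 (0.60, adjusted p = 0.0775). The polysomal change of 0.57 ± 0.20 missed the threshold (adjusted p = 0.0551) and passed in 7 of 19 alternatives, among them the replicate number as a block (adjusted p = 0.0063). At P1 against FD19 the total RNA call (0.54 ± 0.20, adjusted p = 0.0479) ended in 12 of 19 alternatives. Among them were leaving out FD19 litter 2 (0.38, adjusted p = 0.229), P1 litter 1 (0.33, adjusted p = 0.227), and FD19 litter 3, P1 litter 2 or any FD22 litter (adjusted p 0.0548 to 0.0859).

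Among the angiopoietins, Angpt2 (1374207_at), the ligand that can oppose Angpt1, had polysomal signals of 67.3, 98.8 and 93.3 at FD19, 73.3, 74.1 and 100 at FD22, and 70.9, 48.6 and 70.0 at P1. Its total RNA signals were 65.9, 51.4 and 71.9 at FD19, 63.1, 74.4 and 58.1 at FD22, and 49.5, 39.2 and 42.2 at P1. The 3 total RNA values at P1 were the lowest of the 9, and the polysomal values at P1 lay below those at FD22 and overlapped with FD19. No change of Angpt2 between stages was called by limma. Its change at P1 against FD22 was -0.36 in polysomal (95% interval -0.79 to 0.07, adjusted p = 0.331) and -0.52 in total RNA (-0.95 to -0.09, adjusted p = 0.184). Angpt1 (1381487_at), the activating ligand of Tek, was not tested. Its polysomal signals were 10.5, 13.9 and 29.7 at FD19, 16.2, 24.5 and 40.2 at FD22, and 13.6, 12.8 and 16.1 at P1. Its total RNA signals were 15.4, 29.4 and 30 at FD19, 9.2, 23.7 and 26.1 at FD22, and 0.7, 27.4 and 26.0 at P1. No array exceeded the filter of 40.8, so a change of Angpt1 was not detectable with this probe set.

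**Figure D3:**
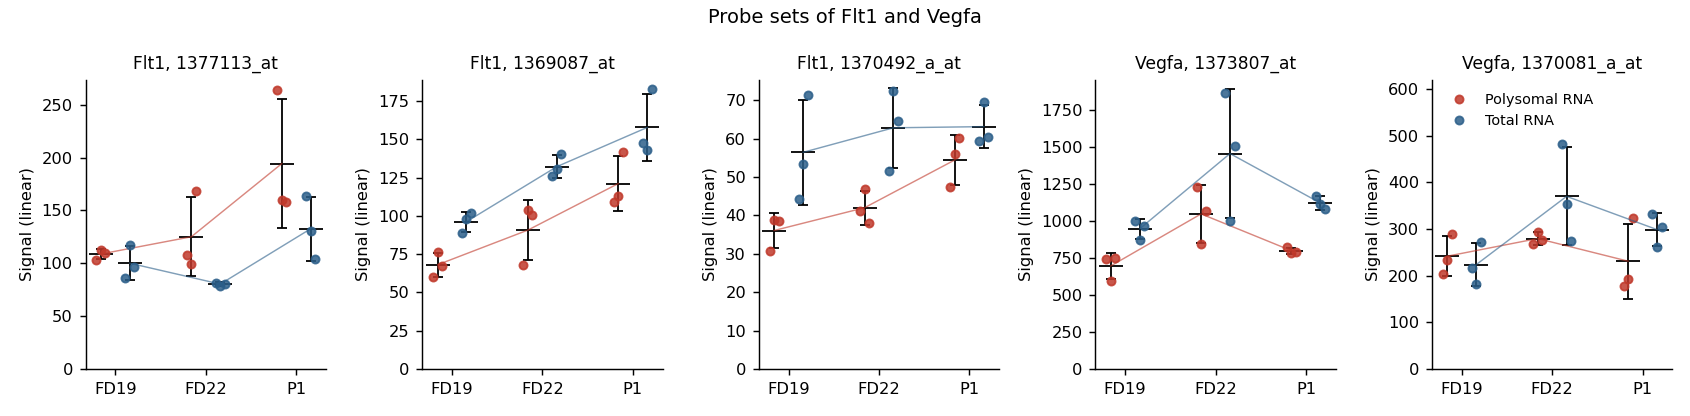
Linear signal of the 3 Flt1 probe sets and the 2 Vegfa probe sets at FD19, FD22 and P1, polysomal RNA in red on the left and total RNA in blue on the right; points are arrays and bars are mean ± SD of 3 arrays. For Flt1 the polysomal values lie above total RNA in 1377113_at in 8 of 9 lysates and below it in 1369087_at and 1370492_a_at in 9 of 9.

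Set against total RNA of the same lysate, large polysomes held relatively more Tie1 and Angpt2 and relatively less Vegfa mRNA, and the Flt1 probe sets went in opposite directions. Averaged over the 3 stages, 3 of 6 tested members were called higher on polysomes (Tie1, Flt1 by its brightest probe set, and Angpt2) and 1 lower (Vegfa). Of all probe sets 46.4% were called (18.8% higher and 27.6% lower), so a call was common. The members' median log2 ratio was 0.27, against -0.09 for all probe sets. At FD19 alone 1 member was higher (Tie1) and 0 lower, where 20.9% of probe sets were called (9.97% higher and 10.9% lower). At FD22 limma called 0 members, where 15.4% were called (6.76% higher and 8.6% lower), and at P1 also 0, where 18.5% were called (8.12% higher and 10.4% lower). At each of these 2 stages 3 members had an unadjusted p under 0.05.

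With the lysate as a block, limma called Vegfa and Tie1 at FD19 and Vegfa, Tie1 and Flt1 at both FD22 and P1. Without the arrays numbered 1 the counts of member genes called were 1, 0 and 0 at the 3 stages and 4 for the mean. Centring the arrays on their medians moved the median of all probe sets by 0.20, to 0.11, so the ratios are relative to the chosen scale. With that centring 70.3% of the calls for the mean ratio were higher on polysomes, against 40.6% as deposited and 53.6% after quantile normalization.

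**Figure D4:**
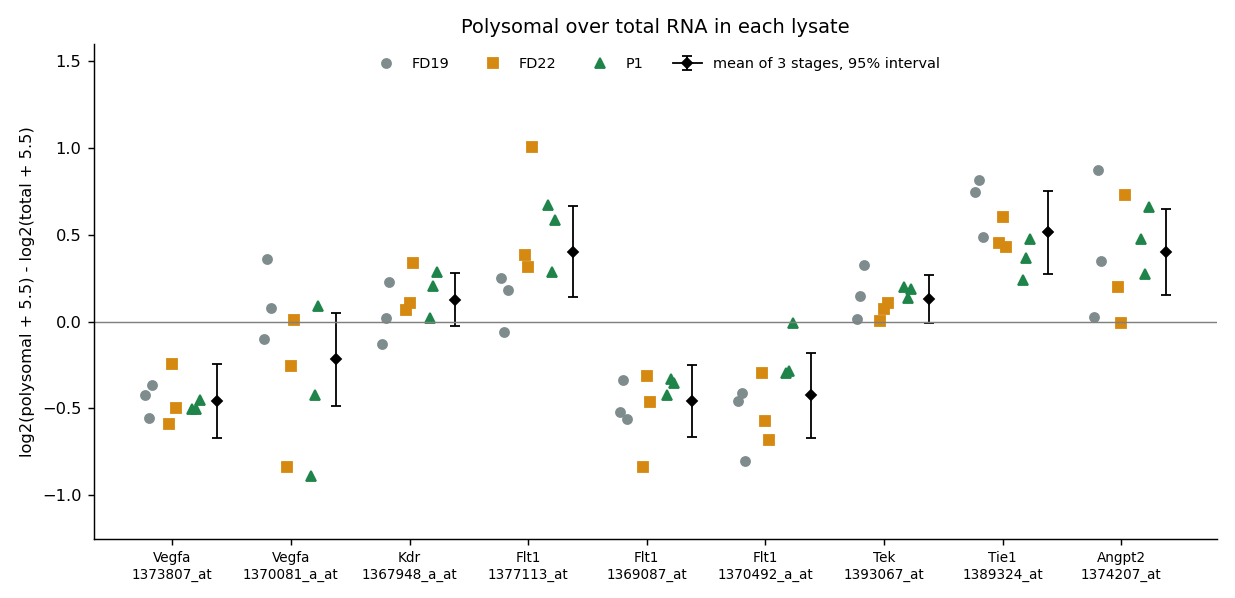
Log2 of polysomal over total signal (each plus 5.5) in every lysate, by probe set; grey circles are FD19, orange squares FD22 and green triangles P1, and black diamonds with bars are the mean over stages with its 95% interval. All 9 lysates lie above 0 for Tie1 and Tek and below 0 for Vegfa 1373807_at and for Flt1 1369087_at and 1370492_a_at.

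Vegfa was below total RNA on polysomes in 9 of 9 lysates, at 0.66 to 0.85 of the total signal. The mean log2 ratio was -0.46 ± 0.10 (0.73-fold, adjusted p = 0.00132), and after median centring it was -0.26 and no longer called (adjusted p = 0.0664). By stage it was -0.45 at FD19, -0.44 at FD22 and -0.49 at P1, with an adjusted p of 0.0791, 0.0951 and 0.0632 and, with the lysate as a block, 0.00424, 0.00579 and 0.0028. The other Vegfa probe set, 1370081_a_at, was lower on polysomes in 5 of 9 lysates, at a mean of -0.22 (95% interval -0.49 to 0.05, adjusted p = 0.174).

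Tie1 was higher on polysomes in 9 of 9 lysates, at 1.18 to 1.76 of the total signal. Its mean log2 ratio was 0.51 ± 0.11 (1.43-fold, adjusted p = 0.00121) and was called under each of 19 alternatives. By stage it was 0.69 at FD19 (adjusted p = 0.0186), 0.49 at FD22 (0.0925) and 0.36 at P1 (0.212), and with the lysate as a block the adjusted p was 0.000485, 0.00548 and 0.0249. The FD19 call ended without any one of the 3 FD19 litters (0.62 to 0.78, adjusted p 0.0678 to 0.107).

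Flt1 stood above total RNA on polysomes by 1377113_at (0.40 ± 0.13, adjusted p = 0.0136) but below it by 1369087_at (-0.46 ± 0.10, adjusted p = 0.00105) and by 1370492_a_at (-0.42 ± 0.12, adjusted p = 0.00624). The calls of 1377113_at and 1369087_at held under each of 19 alternatives. That of 1370492_a_at ended under quantile normalization (-0.19, adjusted p = 0.145) and median centring (-0.23, adjusted p = 0.0899). The brightest set was higher on polysomes in 8 of 9 lysates and both others were lower in 9 of 9. At single stages 1369087_at was called lower at FD22 (-0.54, adjusted p = 0.0409), a call that ended in 11 of 19 alternatives, among them without any FD22 litter (-0.39 to -0.65, adjusted p 0.066 to 0.194). With the lysate as a block 1377113_at was called higher at FD22 (0.57, adjusted p = 0.0185) and P1 (0.51, adjusted p = 0.0267), and 1369087_at lower at FD19 (-0.47, adjusted p = 0.0212) and FD22 (adjusted p = 0.0138). Also with the block, 1370492_a_at was lower at FD19 (-0.56, adjusted p = 0.0315) and FD22 (-0.52, adjusted p = 0.0499).

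Angpt2 was higher on polysomes in 8 of 9 lysates, with a mean log2 ratio of 0.40 ± 0.12 (adjusted p = 0.0102); without FD19 litter 2 it was 0.32 (adjusted p = 0.0555). By their brightest probe sets the receptors Kdr and Tek had polysomal signals near those of total RNA. Kdr was higher in 8 of 9 lysates with a mean of 0.13 ± 0.07 (95% interval -0.02 to 0.28, adjusted p = 0.158). Tek was higher in 9 of 9, at 1.003 to 1.255 of the total signal, with a mean of 0.13 ± 0.07 (-0.006 to 0.27, adjusted p = 0.108). After median centring both stood at 0.33 and were called (adjusted p = 0.00118 for Kdr and 0.000597 for Tek). The dim Kdr probe set 1397868_at was higher on polysomes in 6 of 9 lysates, with a mean of 0.59 ± 0.30 (95% interval -0.04 to 1.21, adjusted p = 0.117). It was called with the lysate as a block (adjusted p = 0.04), under quantile normalization (0.84, adjusted p = 0.0164) and after median centring (0.78, adjusted p = 0.0288).

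No member's polysomal over total ratio was called by limma as changed between stages. In each of the 3 comparisons 0 of 6 members were called and 0 had an unadjusted p under 0.05, with or without the lysate as a block. Of all probe sets, 0% were called for FD22 against FD19, 0.0138% for P1 against FD22 and 0.115% for P1 against FD19 (0.00461% higher and 0.111% lower). With the lysate as a block, which pairs the fractions by design, 0, 17 and 226 of the 21675 probe sets were called in these 3 comparisons. In that fit the 95% interval of the ratio change at P1 against FD22 was -0.34 to 0.26 for Vegfa, -0.32 to 0.32 for Kdr and -0.54 to 0.43 for Flt1. It was -0.19 to 0.42 for Tek, -0.47 to 0.20 for Tie1 and -0.44 to 0.76 for Angpt2. The log2 ratio of Tie1 was 0.24, 0.37 and 0.48 in the 3 lysates at P1 and 0.75, 0.82 and 0.49 at FD19, so all P1 values lay below those at FD19. That change was -0.32 ± 0.16 with the block (95% interval -0.66 to 0.0094, unadjusted p = 0.0559, adjusted p = 0.34).

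The other genes of the 2 pathways were described by a list of 9. All of them were measured, which here means that a probe set of the gene passed the filter. They are the ligands Vegfb, Vegfc, Vegfd, Pgf and Angpt4, the receptors Flt4, Nrp1 and Nrp2, and Ptprb, the endothelial phosphatase that acts on Tek. For FD22 against FD19, 4 of 9 were called higher and 0 lower in polysomal RNA (median 0.51) and 2 higher and 0 lower in total RNA (median 0.45). Of all probe sets 15.9% and 16.2% were called there. Ptprb averaged 650.0 ± 144.4 at FD22 against 395.7 ± 43.83 at FD19 in polysomal RNA (SD, n = 3 each), a rise of 0.69 ± 0.16 on the log2 scale (adjusted p = 0.00565, limma). In total RNA it averaged 580.9 ± 24.61 at FD22 against 333.7 ± 34.62 at FD19, a rise of 0.79 ± 0.16 (adjusted p = 0.00187). The co-receptors Nrp1 and Nrp2 rose on polysomes by 0.60 ± 0.14 (adjusted p = 0.0054) and 0.68 ± 0.15 (adjusted p = 0.0041). In total RNA they stood at 0.28 (adjusted p = 0.187) and 0.44 (adjusted p = 0.0536), and the Nrp2 call on polysomes ended without the arrays numbered 1 (0.61, adjusted p = 0.0582).

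Vegfc, a ligand of Flt4, was called higher at FD22 against FD19 by 0.48 ± 0.13 in polysomal (adjusted p = 0.0165) and 0.46 ± 0.13 in total RNA (adjusted p = 0.0221). Both calls ended without FD19 litter 1 (adjusted p = 0.107 in polysomal and 0.0598 in total RNA) and without the arrays numbered 1 (0.0732 and 0.0608). The polysomal one also ended without FD22 litter 2 (0.0694) and with only the groups compared (0.0912), and the total RNA one without litter 3 of FD19 (0.0885) or of FD22 (0.0843).

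After birth, at P1 against FD22, 0 of these 9 genes were called in polysomal RNA by limma, where 3 had an unadjusted p under 0.05, and 1 was lower in total RNA. Of all probe sets 8.34% and 3.97% were called there. The lower gene was Nrp1 (-0.54 ± 0.14, adjusted p = 0.0305). The call ended in 10 of 19 alternatives, including without FD19 litter 3, FD22 litter 2 or 3, or P1 litter 1 or 3 (-0.41 to -0.57, adjusted p 0.0558 to 0.174). For P1 against FD19, 3 were higher and 1 lower in polysomal RNA and 2 were higher in total RNA. Of all probe sets 28.9% and 26.2% were called there. Ptprb rose by 1.05 ± 0.16 in polysomal (adjusted p = 6.79e-05) and by 1.34 ± 0.16 in total RNA (adjusted p = 4.97e-06). Vegfc rose by 0.72 ± 0.13 (adjusted p = 0.000397) and 0.58 ± 0.13 (adjusted p = 0.00272), and these 4 calls held under each of 19 alternatives. The polysomal calls of Nrp2 (0.42, adjusted p = 0.042) and Vegfd (-0.61, adjusted p = 0.0457) each ended in 9 of 19 alternatives, including without any P1 litter for Vegfd and any FD19 litter for Nrp2.

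On polysomes relative to total RNA, 1 of the 9 was called higher and 3 lower for the mean over stages, a share near the 46.4% of all probe sets called there (18.8% higher and 27.6% lower). Vegfb, a ligand of Flt1, was lowest. Its polysomal signal averaged 163.4 at FD19, 163.5 at FD22 and 82.63 at P1, against 223.2, 309.0 and 222.8 in total RNA. The mean log2 ratio of Vegfb was -0.98 ± 0.20 (adjusted p = 0.00062, called under each of 19 alternatives). Vegfc was higher on polysomes (0.26 ± 0.08, adjusted p = 0.00874), also under each of 19 alternatives. Nrp1 (-0.31 ± 0.08, adjusted p = 0.0041) and Nrp2 (-0.30 ± 0.09, adjusted p = 0.00903) were lower, and under median centring neither was called (-0.11, adjusted p = 0.284, and -0.10, adjusted p = 0.402). Pgf, Flt4 and Angpt4 averaged 22.3 to 73.77 in each group and were not called in any comparison of stages.

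The members were set beside markers of the cells that make them. Of 25 listed endothelial markers 21 were measured, not Cdh5, Robo4, Cd34 and Ednrb. Their summed signal was 9188 to 10560 at FD19, 14490 to 15650 at FD22 and 21340 to 22770 at P1 in polysomal RNA, and 7700 to 7885, 13080 to 14600 and 18240 to 19310 in total RNA. For FD22 against FD19, 12 of 21 were called higher in polysomal RNA (median 0.57) and 14 in total RNA (median 0.69), and 0 were lower. Of all probe sets 15.9% and 16.2% were called there. Without the arrays numbered 1 the counts of markers called higher were 8 and 13. The 4 with the smallest p in total RNA were Ace (2.06), Thbd (1.61), Klf2 (1.30) and Tmem100 (1.39), all called higher. Kdr, Tek and Tie1 were called higher in the same comparison, and the part of endothelial cell number in this was not tested.

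After birth, too, more endothelial markers were called higher than lower. At P1 against FD22, 10 markers were higher and 1 lower in polysomal RNA (median 0.52), and 8 higher and 1 lower in total RNA (median 0.43). Of all probe sets 8.34% and 3.97% were called there. Without the arrays numbered 1 the marker counts were 6 and 0 in polysomal and 4 and 0 in total RNA. Tmem100 (1.65 in polysomal and 1.4 in total RNA), the endoglin gene Eng (0.95 and 1.06) and the sphingosine phosphate receptor gene S1pr1 (0.73 and 0.70) rose. Kdr stood at -0.44 and -0.43 and was called lower in polysomal RNA only, and no test compared it with the markers. The marker that was lower was Emcn (-0.50 and -0.55), named after its values were seen. Its calls ended in 8 and 9 of 19 alternatives.

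**Figure D5:**
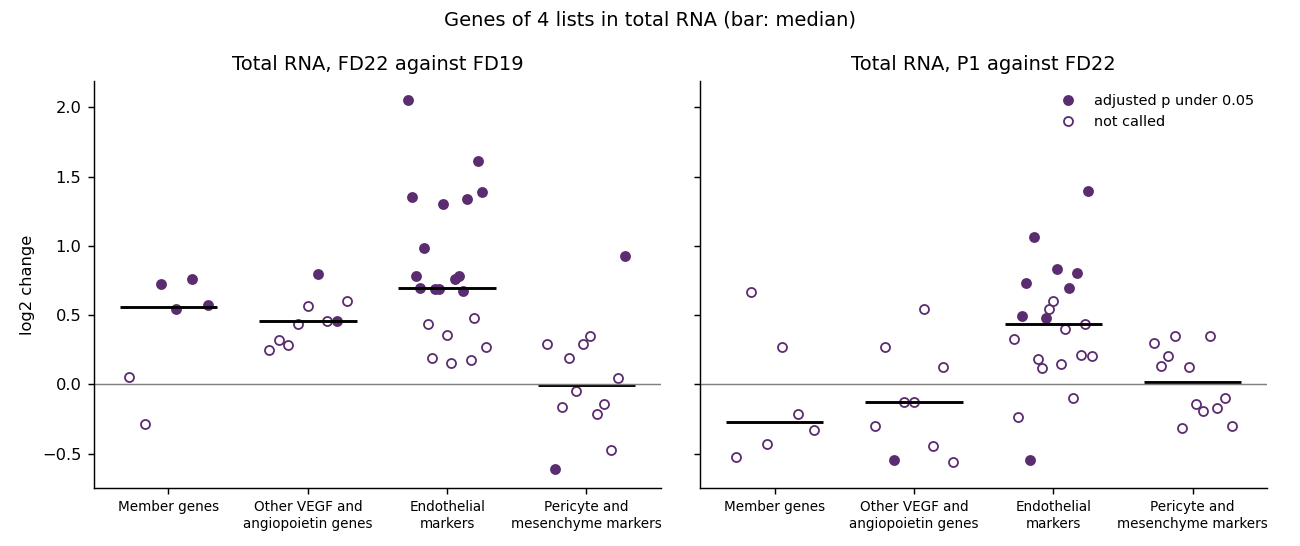
Log2 change in total RNA of the 6 tested member genes, the 9 other genes of the 2 pathways, 21 endothelial markers and 12 pericyte and mesenchyme markers, with FD22 against FD19 on the left and P1 against FD22 on the right; each point is a gene, filled where its adjusted p was under 0.05, and bars are medians. At P1 against FD22 the median is -0.27 for the members and 0.43 for the endothelial markers.

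Pericyte and mesenchyme markers, from cells known to make Angpt1, were all 12 measured. Their summed total RNA signal was 5044 to 5314 at FD19, 5104 to 6042 at FD22 and 5006 to 5571 at P1, and 1 of 12 was higher and 1 lower at FD22 against FD19 in either fraction. Of 10 alveolar type I cell markers, from a cell type known to make Vegfa in rodents, 9 were measured, and they summed to 5967 to 6789, 15190 to 16510 and 16610 to 17870 in total RNA at the 3 stages. In both fractions 9 of 9 rose at FD22 against FD19, and 0 of 9 were called at P1 against FD22 by limma. Of all probe sets 15.9% in polysomal and 16.2% in total RNA were called in the first comparison, and 8.34% and 3.97% in the second. Type II cell markers summed to 16260 to 17280, 28730 to 34540 and 29080 to 32500 in total RNA at FD19, FD22 and P1. Of these 9 markers, 6 were higher and 0 lower in polysomal RNA at FD22 against FD19, and 7 higher and 1 lower in total RNA. At P1 against FD22, 0 were called in either fraction. Lymphatic markers summed to 1185 to 1352, 983.4 to 1460 and 1238 to 1332, and leukocyte and platelet markers to 2437 to 2697, 7095 to 10340 and 7744 to 8876. At FD22 against FD19, 1 of 4 measured lymphatic and 6 of 8 leukocyte and platelet markers were higher in each fraction. At P1 against FD22, 0 of either list were called. The part of these cell types in the members' changes was not tested.

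Vegfa is a known target of hypoxia-inducible factors, so its changes were set beside 21 measured factors and targets of a list of 22. For P1 against FD22, 1 was higher and 5 lower in each fraction, where 8.34% of all probe sets were called in polysomal and 3.97% in total RNA. The list median was -0.29 in polysomal and -0.10 in total RNA, against -0.03 and -0.05 for all probe sets. Among the 5 called lower in each fraction, Ddit4 stood at -1.77 in polysomal and -1.87 in total RNA and Egln3 at -1.69 and -1.12. These were named from the called genes and do not stand for the list, most of which was not called in either fraction. Vegfa stood at -0.37 and -0.33 and was not called. For FD22 against FD19, 3 were higher and 1 lower in polysomal and 3 higher and 2 lower in total RNA. Of all probe sets 15.9% and 16.2% were called there.

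The patterns of the members over the 18 arrays differed from each other. As a description over arrays that share stages and litters, Pearson's r of log2 signal was highest for Kdr with Tie1 (0.65), Flt1 with Tek (0.59) and Kdr with Tek (0.57). It was lowest for Vegfa with Angpt2 (-0.35) and with Flt1 (-0.34). Each r pools polysomal and total arrays and uses the brightest probe sets, so it also carries differences between the fractions. The mean log2 polysomal over total ratio was -0.46 for Vegfa, but 0.40 for Angpt2 and for Flt1 1377113_at. The Flt1 probe sets 1369087_at (-0.46) and 1370492_a_at (-0.42) lay on the side of Vegfa. Among 11590 genes, those whose pattern was most like Kdr were Irgm2 (r = 0.95), Slc7a10 (0.945) and Flvcr2 (0.93), and all 3 had their highest mean at FD22 in both fractions. Flvcr2 averaged 401.4 ± 66.28 in polysomal and 223.7 ± 25.88 in total RNA at that stage (SD, n = 3 each). Most like Vegfa were Mical3 (0.92), the mRNA decay factor gene Zfp36 (0.92) and Sp140 (0.91). Tek was most like the water channel gene Aqp4 (0.98), Hsd17b11 (0.98) and the apolipoprotein gene Apoe (0.97), and Aqp4 averaged 313.0, 1033 and 1724 at FD19, FD22 and P1 in polysomal RNA. Most like Tie1 were St6gal1 (0.93), Homer3 (0.92) and Inpp4a (0.91). Most like Flt1 were Ptprk (0.88), Lmcd1 (0.87) and Plekhm2 (0.86), and most like Angpt2 were Armcx1 (0.94), Fbxo3 (0.90) and Gmds (0.90).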

How the data were processed

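The deposited table gives 1 linear signal per probe set and array, which the authors made with GCOS 1.4 per the submitters' processing notes. The values share a trimmed mean. The signal algorithm and annotation build are not given in the sources used here, and array images were not used. Of 31099 probe sets, 57 controls were left out. A constant of 5.5, the 10th percentile of all signals, was added before taking log2. Group means for 6 groups (12 residual degrees of freedom) were fitted with R 4.3.3 and limma 3.58.1, with eBayes and a variance trend, after the filter at the 40th percentile (40.8), for 13 comparisons. The script was tested on simulated data. Tests are two-sided, and the number of arrays limits the precision. Probe sets were named from GEO's platform annotation: 20826 had 1 gene, 436 several and 9780 none, and 20758 matched a current Entrez entry.

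Polysomal and total arrays of one number and stage share a lysate by design (r of their deviations 0.186 to 0.488 over 9 pairs). Between stages the replicate block fitted the number in every comparison, whatever the r. Each r was above 0.1 only for polysomal RNA at FD22 and FD19 (0.226 to 0.498) and total RNA at P1 and FD19 (0.119 to 0.313). In the other stage comparisons the data do not bear out a pairing by number, and block values there rest on an assumed one. All member genes and measured genes of the other pathway list are named, up to 4 called genes of each other list and the 3 genes most like each member. Members, lists and tests were chosen with earlier results of these data known. Alternatives were other constants, filters, scalings, variance models and samples, the replicate block, each lysate left out, arrays numbered 2 and 3 only, and the second brightest probe set. Figures were drawn with matplotlib 3.10.9, and tables were built with pandas 2.3.3, numpy 2.4.6 and Python 3.11.15.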

Additional observations from a re-analysis of the deposited data

How the results depend on the processing

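Of 2431 alternative values for 130 results of the members' probe sets, 2282 kept their direction and their side of the threshold or were uncalled in both, 92 lost and 57 gained a call, and 0 called values reversed; 58 uncalled values changed sign. The replicate block gained 15 calls and lost 0. The numbers of member genes called moved as follows, where the causes were not tested. For total RNA at FD22 against FD19 (4 member genes) median centring, no variance trend, only the groups compared, arrays numbered 2 and 3 and the second probe set each gave 3, and leaving out a lysate 2 to 4. For total RNA at P1 against FD22 (0) the stricter filter gave 1, quantile normalization 2, the replicate block 1 and leaving out a lysate 0 to 1. For total RNA at P1 against FD19 (2) no filter, median centring, no variance trend, only the groups compared and arrays numbered 2 and 3 each gave 1, the second probe set 3, and leaving out a lysate 1 to 2. For polysomal RNA at FD22 against FD19 (3) median centring, no variance trend, only the groups compared and arrays numbered 2 and 3 each gave 2, the stricter filter and the replicate block each 4, the second probe set 1 and leaving out a lysate 1 to 4. For polysomal RNA at P1 against FD22 (2) no filter, quantile normalization, median centring and the second probe set each gave 1, no variance trend, only the groups compared and arrays numbered 2 and 3 each gave 0, and leaving out a lysate 0 to 2. For polysomal RNA at P1 against FD19 (3) arrays numbered 2 and 3 gave 1, quantile normalization and the second probe set 2, and leaving out a lysate 2 to 3. For the ratio at FD19 (1) quantile normalization, only the groups compared and the replicate block each gave 2, and leaving out a lysate 0 to 2. At FD22 (0) quantile normalization and the second probe set each gave 1, median centring 3, the replicate block 3 and leaving out a lysate 0 to 2. At P1 (0) quantile normalization gave 2, median centring 4, only the groups compared 1, the replicate block 3 and leaving out a lysate 0 to 1. The mean ratio (4) gave 3 to 5, and the ratio changes gave 0 in each alternative.

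Counts over all probe sets moved by over 1.5 times in these cases. Total RNA at FD22 against FD19 gave 2330 with arrays numbered 2 and 3, against 3520; P1 against FD22 gave 352 to 1457, against 861. Polysomal RNA at FD22 against FD19 gave 1996 to 4607, against 3451, and P1 against FD22 gave 476 to 2731, against 1807. The ratio gave 1700 to 6787 at FD19, against 4525, 1213 to 5653 at FD22, against 3329, and 1866 to 6058 at P1, against 4004. Ratio changes gave 0 to 1 for FD22 against FD19 (0), 0 to 20 for P1 against FD22 (3) and 0 to 226 for P1 against FD19 (25). Median centring moved the percentage of calls that were higher to 40.5 for total RNA at FD22 against FD19 (51.8 as deposited), to 74.9 for total RNA (55.6) and 60.1 for polysomal RNA (45.4) at P1 against FD22, and to 73.4 for the ratio at FD19 (47.8), 79.8 at FD22 (44.0) and 75.1 at P1 (44.0); quantile normalization moved the FD22 ratio to 54.5. Dim probe sets (Angpt1, Angpt2, Flt1 1370492_a_at and Kdr 1397868_at) limit what could be detected.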

Other observations

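Genes of sprouting and Notch signalling, which act on the same endothelial cells, were followed by a list of 14, all measured. For FD22 against FD19, 2 were higher and 0 lower in polysomal RNA and 3 higher and 0 lower in total RNA. These counts lay near the 15.9% and 16.2% of all probe sets called there, and the list medians were 0.02 and 0.04. At P1 against FD22, 1 was higher and 1 lower in polysomal RNA and 2 higher and 1 lower in total RNA. Of all probe sets 8.34% and 3.97% were called in that comparison. Apln, which encodes the peptide apelin, stood out by size: it averaged 246.6 at FD19, 435.7 at FD22 and 1072 at P1 in polysomal RNA, and 136.9, 225.1 and 851.5 in total RNA. It rose at P1 against FD22 by 1.30 ± 0.16 in polysomal (adjusted p = 6.46e-05, limma) and by 1.90 ± 0.16 in total RNA (adjusted p = 1.96e-06), and these calls held under each of 19 alternatives. Its mean polysomal over total ratio was 0.69 ± 0.09 (adjusted p = 8.57e-06). The receptor gene Notch1 (-0.62 ± 0.09, adjusted p = 2.28e-05) and the Notch feedback gene Nrarp (-0.68 ± 0.11, adjusted p = 5.87e-05) stood below total RNA on polysomes, and for the mean ratio 2 of the 14 were higher and 4 lower, a share near the 46.4% of all probe sets called for that ratio. Dll4, the Notch ligand of endothelial tip cells, rose at P1 against FD19 in polysomal RNA by 0.67 (adjusted p = 0.00322, held under each of 19 alternatives), and its total RNA call (0.48, adjusted p = 0.029) ended in 6 of 19.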
